A study of Saccharomyces cerevisiae with 5 samples.

Results

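The genes described here make, desaturate, lengthen and activate the fatty acids of budding yeast (Saccharomyces cerevisiae). The list held 10 genes chosen by function: OLE1, ACC1, FAS1, FAS2, ELO1, FAA1, FAA4, ACB1, MGA2 and SPT23. They were chosen with earlier results of these data known. A gene was taken where the array's annotation gave its symbol to a feature and where it had values in 2 or more hybridizations. This left 8 of the 10 among 5196 named genes, each with 1 feature and with values in all 3 hybridizations. ACC1, acetyl-CoA carboxylase, and FAS2, the alpha subunit of fatty acid synthase, matched no annotated feature and were not analysed here.

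In yeast, acetyl-CoA is carboxylated and built into saturated fatty acids by a cytosolic synthase of paired subunits. The desaturase Ole1 of the endoplasmic reticulum, which needs oxygen, then places a double bond in most of these chains, and this is the yeast cell's only source of unsaturated fatty acids of its own making. Mga2 and Spt23 are transcription factors anchored in the same membrane that are released by the ubiquitin system and switch on OLE1. The balance of saturated and unsaturated chains sets how fluid a membrane is, and high pressure, like cold, orders membrane lipids.

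Both RNA samples of each array came from cells of the same history, grown to exponential phase and then held for 16 h at 30 MPa and 25 °C. The decompressed sample was harvested at once (0 h), and the recovery sample after another 2 h of growth at 0.1 MPa. The labels give no strain or genotype, and no unpressurized culture was analysed here. Recovery RNA carried Cy5 and decompressed RNA carried Cy3 on each of 3 two-colour arrays, from independent biological samples per the labels, so that no dye was swapped and a dye effect cannot be told apart from a change. The values are log2 ratios. Which channel is the numerator is not stated, and recovery over decompressed, the likely direction, is used throughout; every direction would turn if the ratio ran the other way.

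Arrays 1 and 2 were each read in 2 scans, one of high and one of low power, and array 3 in a single scan. Between 2089 and 5007 features carried a value in a scan, fewest in hybridization 3. Each gene's mean was tested against 0 with limma over 4368 genes and unnamed features, and a gene is said to have risen or fallen where the Benjamini-Hochberg adjusted p was under 0.05. This test gave every gene with 3 values the same standard error of 0.26, because it pooled the spread of all genes into one variance. A second adjusted p, from the 1891 genes and features measured in all 3 hybridizations, therefore stands beside the first. In the first test 24.5% of all genes and features passed, 12.7% lower and 11.9% higher in recovery. The number of arrays limits the precision of every value.

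Of the 8 fatty acid genes, OLE1, FAS1, FAA4 and MGA2 fell during recovery and none rose. These 4 of 8, from a list chosen with earlier results known, stand beside the 12.7% of all genes and features that fell. In the fit of genes with 3 values the same 4 passed, beside 12.2% lower and 15.1% higher among all tested. The median log2 ratio of the 8 genes was -0.70 against -0.01 over all genes and features tested. FAA1, ACB1, SPT23 and ELO1 did not pass, with means from -0.52 to 0.59. The order of the means ran OLE1, FAS1, FAA4, MGA2, FAA1, ACB1, SPT23 and ELO1. Of the 7 steps in that order, only the one of 0.69 from FAA1 to ACB1 was wider than the larger SD of its pair.

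**Figure D1:**
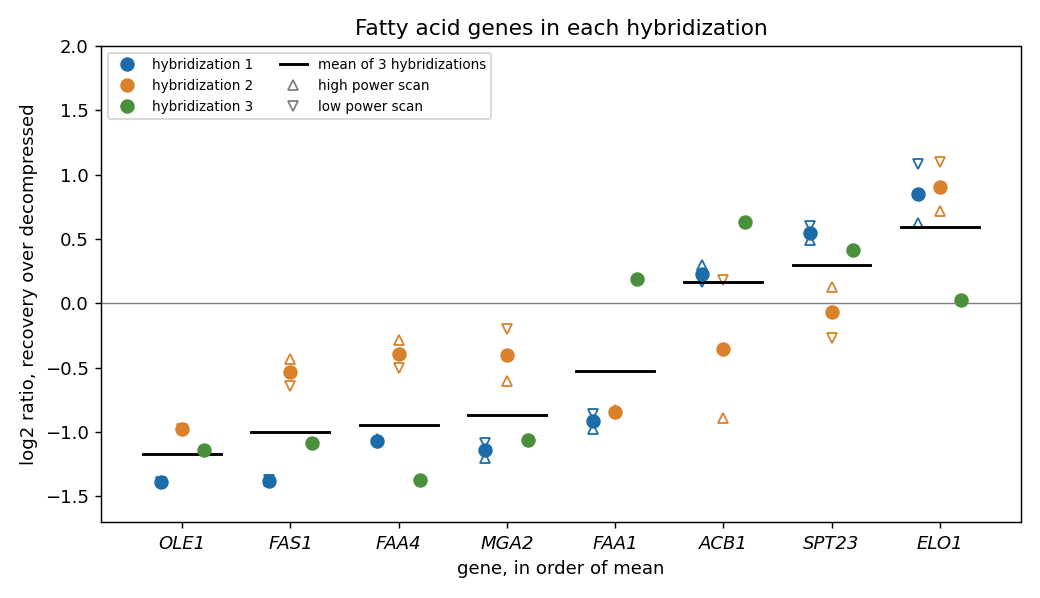
Log2 ratio of recovery over decompressed RNA (vertical axis) for the 8 fatty acid genes (horizontal axis, in order of mean). Filled circles are hybridizations 1 to 3, open triangles the high (pointing up) and low (pointing down) power scans behind hybridizations 1 and 2, and bars the means; OLE1, FAS1, FAA4 and MGA2 lie below 0 in every hybridization, while FAA1, ACB1 and SPT23 lie on both sides of it.

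OLE1 (YGL055W), the desaturase gene, was the lowest of the 8. Its log2 ratio was -1.39 in hybridization 1, -0.98 in hybridization 2 and -1.14 in hybridization 3. All 3 values lay well below 0, and they differed little among themselves (SD 0.21, n = 3). The mean of -1.17 (95% interval -1.68 to -0.66) is a 2.25-fold lower level in recovery, with a limma adjusted p of 0.000136 and of 0.00327 among genes with 3 values. Only 3.91% of all genes and features tested had a lower mean. OLE1 carried no value in either high power scan, so hybridizations 1 and 2 rest on the low power scans alone, which the submitters made to rescue spots brighter than the scanning range. This held for 48 genes and unnamed features of the array in both hybridizations. OLE1 passed without each hybridization in turn, at means from -1.26 to -1.06 and with the largest limma adjusted p, 0.0390, without hybridization 1.

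FAS1 (YKL182W) encodes the beta subunit of fatty acid synthase, the enzyme that builds the chains OLE1 desaturates. Its ratios were -1.38, -0.54 and -1.09 in hybridizations 1, 2 and 3. The value in hybridization 2 was the smallest in size, though still below 0. The mean was -1.001 ± 0.43 (SD, n = 3), a 2.00-fold lower level (limma adjusted p = 0.00140, and 0.0109 among genes with 3 values). In hybridization 1 FAS1 lay 0.01 above OLE1, in hybridization 3 0.05 above it and in hybridization 2 0.44 above it. Without hybridization 1 FAS1 was at -0.81 and missed the threshold (limma adjusted p = 0.126).

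The acyl-CoA synthetases Faa1 and Faa4 activate long-chain fatty acids taken up from outside or released inside the cell. FAA4 (YMR246W) stood at -1.07, -0.39 and -1.37 in hybridizations 1, 2 and 3, lower in recovery each time. Its mean of -0.94 ± 0.50 (SD, n = 3) is a 1.92-fold lower level (limma adjusted p = 0.00286, and 0.0162 among genes with 3 values). FAA4 missed the threshold without hybridization 1, at -0.88 (limma adjusted p = 0.0983), and without hybridization 3, at -0.73 (adjusted p = 0.0515).

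FAA1 (YOR317W) stood at -0.92 and -0.84 in hybridizations 1 and 2 and at 0.19 in hybridization 3. The third value lay on the other side of 0, and the mean of -0.52 ± 0.62 (SD, n = 3) did not pass (limma adjusted p = 0.131). Without hybridization 3 FAA1 was at -0.88 and passed (limma adjusted p = 0.0173). FAA1 minus FAA4 was 0.15 in hybridization 1, -0.45 in hybridization 2 and 1.56 in hybridization 3, so neither was the lower one throughout. The difference of 0.42 ± 1.03 (SD, n = 3) was smaller than its spread (exact two-sided sign-flip test, p = 0.75). The proteins are close relatives, and how far their signals mix on this array was not tested.

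ACB1 (YGR037C), the acyl-CoA binding protein that carries activated chains between enzymes, stood at 0.23, -0.35 and 0.63 in hybridizations 1, 2 and 3. The values lay on both sides of 0, with a mean of 0.17 ± 0.49 (SD, n = 3, limma adjusted p = 0.695) and a 95% interval from -0.34 to 0.68. In hybridization 2 the high power scan gave -0.89 and the low power scan 0.18. This gap of 1.07 between scans of one array was wider than that of 99.5% of the 3879 features with both scans, so the value in hybridization 2 has no settled sign.

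ELO1 (YJL196C), an elongase that lengthens medium-chain acyl groups, had the highest mean. It stood at 0.85 and 0.91 in hybridizations 1 and 2 and at 0.03 in hybridization 3. All 3 values were above 0, the third barely. The mean of 0.59 ± 0.49 (SD, n = 3) did not pass (limma adjusted p = 0.0782, and 0.103 among genes with 3 values). ELO1 passed without hybridization 3, at 0.88 (limma adjusted p = 0.0174). In both hybridizations with paired scans the low power scan gave the higher ratio (high minus low -0.46 and -0.38).

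The regulators MGA2 and SPT23 had means on opposite sides of 0, though in hybridization 2 both lay below it. MGA2 (YIR033W) was at -1.14, -0.40 and -1.06 in hybridizations 1, 2 and 3, and its mean of -0.87 ± 0.41 (SD, n = 3) is a 1.82-fold lower level in recovery (limma adjusted p = 0.00669, and 0.0203 among genes with 3 values). Every value was below 0, with that of hybridization 2 nearest to it. Without hybridization 1 MGA2 was at -0.73 and missed the threshold (limma adjusted p = 0.176). SPT23 (YKL020C) was at 0.55, -0.07 and 0.41, with a mean of 0.30 ± 0.32 (SD, n = 3) that did not pass (limma adjusted p = 0.449).

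MGA2 lay below SPT23 in each hybridization, with differences of -1.68, -0.33 and -1.48. The mean difference was -1.16 ± 0.73 (SD, n = 3). An exact two-sided sign-flip test gave p = 0.25, the smallest that this test can give with 3 hybridizations, so it could not reach 0.05 for a pair. Over the 2 pairs compared, with FAA1 and FAA4, the Benjamini-Hochberg adjusted value was 0.5 for MGA2 and SPT23 and 0.75 for the synthetases. Both pairs were chosen after their values were seen.

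All 4 genes that fell were nearest to 0 in hybridization 2. For FAS1, FAA4 and MGA2 this changed their rank, since there 19.8%, 25.7% and 25.3% of tested genes had a lower ratio. Each such percentage is over the tested genes with a value in that hybridization, a smaller set in hybridization 3. In hybridization 1 only 3.81%, 7.76% and 6.46% had a lower ratio, and in hybridization 3 only 9.29%, 5.43% and 9.63%. OLE1 kept a low rank throughout, with 3.78%, 7.33% and 8.46% of genes below it in hybridizations 1, 2 and 3.

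The ratios of this array ran with gene length, and the fatty acid genes include some of the longest and shortest of the genome. Coding length here is the length listed for each gene, which can differ from that of its coding sequence. Spearman rho of ratio and coding length across genes, which are not independent replicates, was -0.48, -0.24 and -0.23 in hybridizations 1, 2 and 3. The shortest 10% of tested genes had a median mean log2 ratio of 0.44 and the longest 10% of -0.32. FAS1, with 6156 bases, was exceeded in length by 2 tested genes, and ACB1, with 264 bases, was longer than only 0.719% of them. MGA2 (3342 bases) and SPT23 (3249 bases) are almost equally long, longer than 95.2% and 94.6% of tested genes. OLE1 (1533 bases) lies near the middle, longer than 63.7% of tested genes.

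With the trend on length taken out of each array, 2 of the 8 genes fell and none rose, where 10.6% of all tested genes fell and 7.48% rose. OLE1 was then at -1.07 (limma adjusted p = 0.0043) and FAA4 at -0.76 (adjusted p = 0.0378). FAS1 moved to -0.48 (limma adjusted p = 0.132) and MGA2 to -0.54 (adjusted p = 0.0974), and neither passed. With each array first centred within groups of 96 consecutive features and then corrected for length, MGA2 passed at -0.56 (limma adjusted p = 0.0308) and FAS1 was at -0.57 (adjusted p = 0.0566). With the 48 blocks that the feature numbers give in place of those groups, an alternative chosen after seeing the data, both passed, MGA2 at -0.62 (limma adjusted p = 0.0188) and FAS1 at -0.65 (adjusted p = 0.0271). The trend subtracted from FAS1 was -0.66, -0.26 and -0.65 in the 3 hybridizations. Each point of that curve drew on a span of 0.667 of the genes. Only 2 tested genes were longer than FAS1, so at its length the curve drew mostly on shorter genes. With only the length trend removed, ACB1 turned to -0.41 and SPT23 rose in size to 0.62. Neither passed the threshold (limma adjusted p = 0.251 and 0.0775). In the groups of 96 features with length, SPT23 passed as higher at 0.59 (limma adjusted p = 0.0376). ACB1 passed there as lower at -0.67 (limma adjusted p = 0.0149). With the 48 blocks and length, SPT23 passed at 0.69 (limma adjusted p = 0.0209) and ACB1 at -0.80 (adjusted p = 0.00877).

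**Figure D2:**
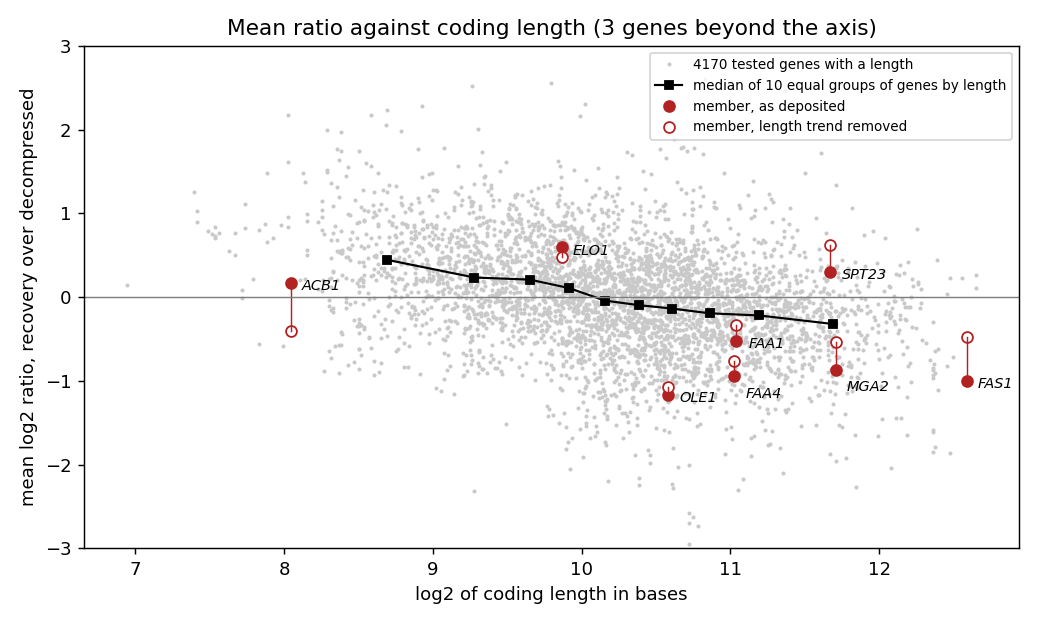
Mean log2 ratio (vertical axis) against the log2 of coding length in bases (horizontal axis) for 4170 tested genes (grey) with the medians of 10 equal groups of genes by length (black). Filled red circles are the 8 fatty acid genes as deposited and open circles the same genes with the length trend removed: OLE1 hardly moved (-1.17 and -1.07), while FAS1 went from -1.001 to -0.48.

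The level set as 0 also matters. ACT1, the actin gene, present in 13 features, had a mean log2 ratio of -0.58 (limma adjusted p = 0.0901). With each hybridization centred on ACT1, the median of all genes and features went up by 0.61, the 4 genes that fell stood at -0.59 to -0.29 without a call, and ELO1, SPT23 and ACB1 passed as higher at 1.17, 0.87 and 0.75. Centred on the median of all genes, OLE1, FAS1, FAA4 and MGA2 fell as before. A call is thus a difference relative to the bulk of measured transcripts.

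**Figure D3:**
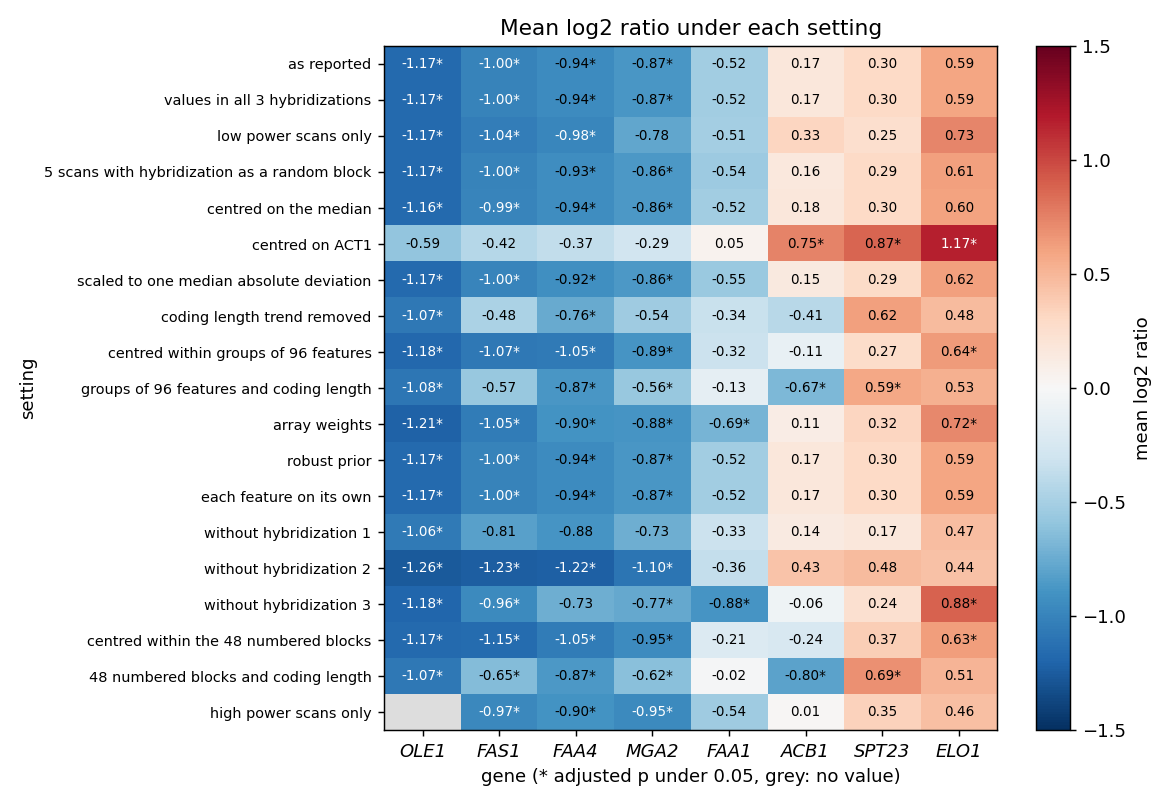
Mean log2 ratio (colour and printed value) of the 8 fatty acid genes (columns) under each processing setting (rows), with a star where the limma adjusted p was under 0.05 and grey where a gene had no value. OLE1 is starred in every setting that gave it a value except the one centred on ACT1, where it was at -0.59.

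Around these genes, 47 of 64 listed genes of the wider pathway could be tested, in 8 lists. Among all genes and features, 11.9% rose and 12.7% fell. Among genes for very long chains, which go into sphingolipids, 1 of 5 rose and none fell, at a median log2 ratio of 0.23. The riser was ELO2 (YCR034W), an elongase related to ELO1, at 1.22, 1.76 and 1.22 in hybridizations 1, 2 and 3. Its mean of 1.40 ± 0.31 (SD, n = 3) is a 2.64-fold higher level (limma adjusted p = 2.56e-06, and 0.00116 among genes with 3 values). The third elongase gene, ELO3, was at 0.23 ± 0.29 and the ketoreductase gene IFA38 at -0.09, both without a call. Whether ELO1 and ELO2 signals mix on this array was not tested.

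FAT1 (YBR041W), which takes up fatty acids and activates very long chains, fell. It was at -1.21, -1.29 and -1.62 in hybridizations 1, 2 and 3, and its mean of -1.37 ± 0.22 (SD, n = 3) is a 2.59-fold lower level (limma adjusted p = 4.25e-06, and 0.00116 among genes with 3 values). FAT1 was thus lower than FAA4 in each array. FAA2, the peroxisomal synthetase gene, did not pass at 0.12. None of 4 tested genes for acetyl-CoA supply and biotin passed, with a median of -0.24, where 24.5% of all genes and features passed. The means of these genes ran from -0.62 to 0.08. The acetyl-CoA synthetase genes ACS1 and ACS2, nearest to 0 among them, were at -0.03 and 0.08.

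Of 4 tested genes that process Mga2 and Spt23, 1 was called lower and none higher, beside 12.7% and 11.9% of all genes and features. The gene called lower was UFD1, a cofactor of the Cdc48 segregase. Its ratios were -0.01, -0.04 and -2.35 in hybridizations 1, 2 and 3, so that 1 array made the mean of -0.80 ± 1.34 (SD, n = 3). The call (limma adjusted p = 0.0129) was not made among genes with 3 values (adjusted p = 0.128) and ended when hybridization 3 (-0.03, adjusted p = 0.955) or hybridization 2 (-1.18, adjusted p = 0.0725) was left out. RSP5, the ubiquitin ligase that acts on both factors, was at -0.20 ± 0.28 and the Cdc48 cofactor gene NPL4 at 0.34, without calls.

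Of 9 regulators of lipid and oxygen genes, 2 rose and 2 fell, at a median of 0.10, beside 11.9% higher and 12.7% lower among all genes and features. ROX1 (YPR065W), the haem-dependent repressor of hypoxic genes, was at 1.55 and 1.53 in hybridizations 1 and 2, with no value in hybridization 3 (mean 1.54, limma adjusted p = 3.38e-05). OPI1, the repressor of phospholipid genes, was at -0.91 and -0.99 in the same arrays (mean -0.95, limma adjusted p = 0.0166). INO4, an activator of the same genes and of fatty acid synthase genes, was at -0.31, -0.64 and -1.54, with a mean of -0.83 ± 0.63 (SD, n = 3, limma adjusted p = 0.00979); the call ended when hybridization 2 (adjusted p = 0.0802) or hybridization 3 (adjusted p = 0.2) was left out.

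SNF4, a subunit of the Snf1 kinase, which inhibits acetyl-CoA carboxylase, was called at 0.71 ± 0.43 (SD, n = 3, limma adjusted p = 0.0313). The call was just missed among genes with 3 values (limma adjusted p = 0.0502) and ended when hybridization 1 (0.47, adjusted p = 0.429) or hybridization 2 (0.79, adjusted p = 0.11) was left out, and after the length trend was removed (0.61, adjusted p = 0.0706). The electron donor genes CYB5 and NCP1 did not pass, at 0.14 and 0.10. For ROX1 and OPI1, as for all genes with 2 values, the standard error of 0.32 was that of the pooled spread and not their own.

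**Figure D4:**
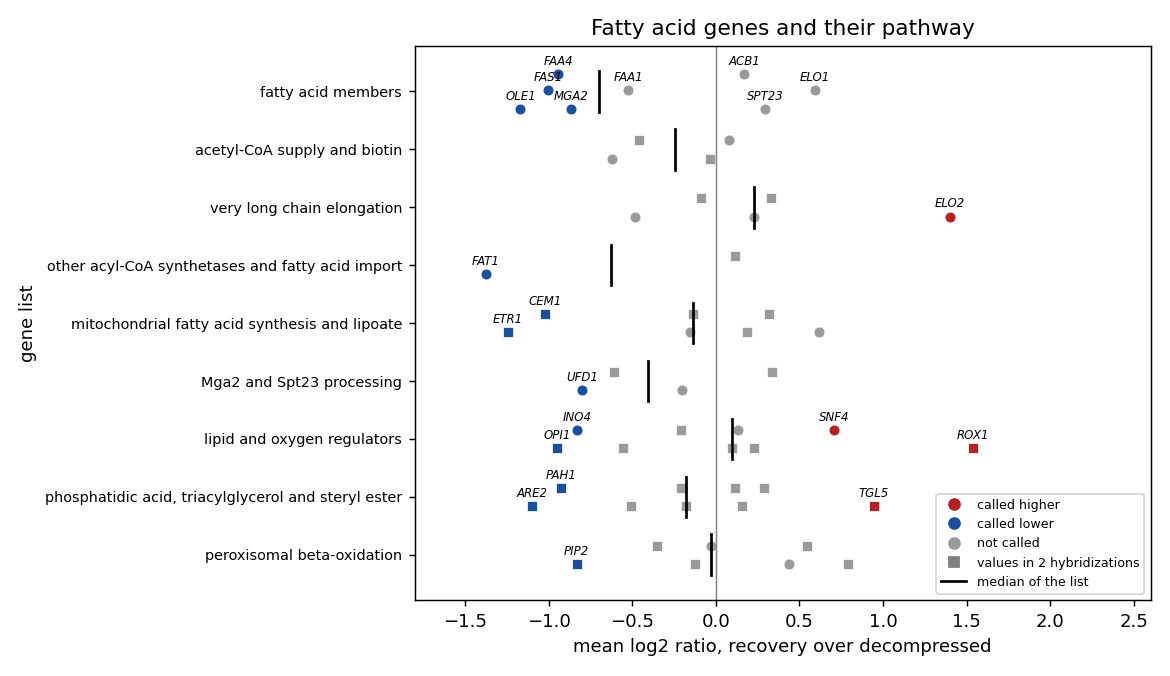
Mean log2 ratio (horizontal axis) of the fatty acid genes and the tested genes of 8 pathway lists (rows), coloured by call, with squares for genes with values in 2 hybridizations and a bar at each list's median. The fatty acid genes have their median at -0.70; ELO2 at 1.40 and ROX1 at 1.54 are the highest points and FAT1 at -1.37 the lowest.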

How the data were processed

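The deposited values are log2 ratios of the 2 channels of a scan. The authors normalized them by LOWESS over spots flagged 0, per the labels; the base was read from the lowest value, which is the log2 of 0.01. The platform annotation named 5297 of 6336 features, of which 5293 matched RefSeq assembly R64 by Entrez identifier. Lengths come from there. Of the lengths of protein-coding genes, 96.3% were divisible by 3, so some are not those of a coding sequence alone. Features of one gene were averaged, then both scans of an array. Means were tested against 0 with limma 3.58.1 (lmFit, eBayes; R 4.3.3), two-sided, over 4368 genes and unnamed features with values in at least 2 of 3 hybridizations. The variance prior of that fit had infinite degrees of freedom, so all genes share one variance; over the 1891 with 3 values the prior had 12.2 degrees of freedom. The 95% intervals use the shared variance.

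The length trend was a lowess curve on log2 coding length in each hybridization. The limma fit and the length correction were also run on simulated ratios with known shifts and a straight trend on length. Scan averaging, centring and the block settings were not tested in this way. Members and lists were chosen with earlier results of these data known. All members were named. From each list, up to 4 called genes were named by smallest p, and up to 2 uncalled genes nearest to 0. Other uncalled genes of a list thus lay further from 0 than those named. OAF1 and ALE1 matched no annotated feature, and LIP3 was taken under its symbol AIM22. No sequences are printed and promoter motifs were not searched.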

Additional observations from a re-analysis of the deposited data

How the results depend on the processing

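The count of fatty acid genes that fell (4) went to 0 centred on ACT1 and to 2 with the length trend removed, and to 5 with array weights (FAA1 at -0.69, limma adjusted p = 0.0288) and with the 48 blocks and length (ACB1); that of genes that rose (0) went to 3 centred on ACT1. It went to 1 within groups of 96 features, with array weights and in the 48 blocks given by the feature numbers (ELO1 each time). With length removed as well, it went to 1 in the groups and in the blocks (SPT23 each time). Both block settings were chosen after seeing the data. Leaving out 1 hybridization gave 1 to 4 falling and 0 to 1 rising. The count over all genes and features (1072) was 515 with values in all 3 hybridizations, 633 with low power scans only and 2084 centred on ACT1, where 1953 were higher and 131 lower against 518 and 554; leaving out 1 hybridization gave 262 to 1057, the lower counts among fewer genes tested. FAA1 turned to 0.054 centred on ACT1. ACB1 turned to -0.41 with length removed, -0.11 within groups of 96, -0.67 with both (limma adjusted p = 0.0149), -0.24 in the 48 blocks and -0.80 with blocks and length (adjusted p = 0.00877), and ran from -0.061 to 0.43 with 1 hybridization left out; the cause was not tested. MGA2 missed the threshold with low power scans only (-0.78, adjusted p = 0.0558). OLE1 kept its call under 16 of 17 alternatives, FAS1 under 14 of 18, FAA4 under 15 of 18 and MGA2 under 14 of 18, all with the same direction. Not all of these alternatives could change a call. The robust prior gave the same values, and testing each feature on its own gave the same means, as each gene has 1 feature. OLE1 has no value with high power scans only, so low power scans only gave it the same mean of -1.17. Each ratio compares the pair of samples of its own array, so the test of mean ratios against 0 is already paired by array. The series holds 1 group of ratios.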

Other observations

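Of 16 tested genes that store or burn fatty acids, in 2 lists, 3 fell, 1 rose and 12 had no call. Among all genes and features 12.7% fell and 11.9% rose, and 24.5% passed in either direction. Of 9 tested genes of phosphatidic acid, triacylglycerol and steryl ester synthesis and breakdown, 2 fell and 1 rose, at a median log2 ratio of -0.18, and none had a value in hybridization 3. ARE2, the main sterol acyltransferase gene, was at -1.29 and -0.91 in hybridizations 1 and 2 (mean -1.10, limma adjusted p = 0.00476). PAH1, the phosphatidate phosphatase gene, was at -1.39 and -0.45 (mean -0.92, adjusted p = 0.0209) and at -0.68 with the length trend removed (adjusted p = 0.113). TGL5, a lipase gene of lipid droplets, was at 0.73 and 1.16 (mean 0.94, limma adjusted p = 0.0174). DGA1 and TGL3, of triacylglycerol synthesis and breakdown, were at 0.16 and 0.12 without calls. Of 7 tested genes of peroxisomal beta-oxidation, 1 fell and none rose, at a median of -0.03. It was PIP2, an activator of these genes on oleate, at -0.83 (limma adjusted p = 0.0397) and at -0.55 with the length trend removed (adjusted p = 0.172). FOX2 and PEX11 were at -0.12 and -0.03. With the length trend removed, none of the 7 fell and 1 rose.

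Mitochondria have a fatty acid synthase of their own, which feeds lipoate synthesis. Of 7 tested genes of that pathway, 2 fell and none rose, at a median of -0.13, beside 12.7% lower and 11.9% higher among all genes and features. ETR1, the enoyl reductase gene, was at -1.32 and -1.16 in hybridizations 1 and 2 (mean -1.24, limma adjusted p = 0.0012), and CEM1, the ketoacyl synthase gene, at -0.88 and -1.15 (mean -1.02, adjusted p = 0.00965). Neither had a value in hybridization 3, and both passed with the length trend removed. The lipoate genes LIP2 and LIP5 were at -0.13 and -0.15 without calls.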
